A study of Mus musculus with 18 samples.

Results

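Ribosome biogenesis genes encode the factors that build ribosomes, as distinct from the proteins that stay in the finished particle. A list of 50 of these genes was followed in bulk RNA-seq of O9-1 neural crest cells. The genes were taken by symbol from the 55335 gene IDs counted in each library, and earlier results of these data were known when the list was drawn up. All 50 were found, each under 1 ID, and all 50 passed the filter on low counts at both days. By role, the list held 2 abundant nucleolar proteins, 3 core proteins of box C/D small nucleolar ribonucleoproteins (snoRNPs), 5 box H/ACA snoRNP proteins and chaperones, 6 genes of RNA polymerase I transcription, 12 of the small subunit processome, 7 of late small subunit maturation and 15 of large subunit assembly.

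As background, RNA polymerase I transcribes ribosomal DNA in the nucleolus into a long precursor, which snoRNPs modify and the small subunit processome cleaves before separate sets of factors finish the small and the large subunit. The pathway takes up much of the effort of a growing cell, and its genes are well known to be raised by growth signals and by the transcription factor Myc. Cranial neural crest is known to be sensitive to its loss, since inherited faults in RNA polymerase I subunits and their partners cause craniofacial disorders.

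O9-1 is a multipotent neural crest line derived from mouse embryos, and every library carried a wildtype genotype in its labels. Cells were kept in osteoblast differentiation medium with FGF2 or its vehicle. They had received either a scrambled control siRNA (Ctrl) or an siRNA pool against both Yap and Taz (Y/T dKD), the coactivators of the Hippo pathway. At day 2.5 (d2.5) and day 5 (d5) of differentiation, 3 libraries of polyadenylated RNA were made from each of 3 groups, 18 in all. The groups were Y/T dKD+FGF2 and the controls Ctrl+vehicle and Ctrl+FGF2. No knockdown without FGF2 was analysed here, so the knockdown was compared only in the presence of FGF2. The labels give each day as a batch, so day and batch cannot be told apart, and groups were compared within a day. The labels do not say that replicates were separate cultures, so p-values measure only the spread between these libraries.

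Each library held between 10377151 and 14698525 counts in genes. The knockdown was partial. At d2.5, Yap1 was at 140.3, 134 and 136 CPM (gene counts scaled to a common library size) in Ctrl+FGF2 and 68.6, 69.6 and 73.7 CPM in Y/T dKD+FGF2 cells (log2 fold change -0.96 ± 0.04 SE), and Wwtr1, which encodes Taz, changed by -0.72 ± 0.04. At d5 the corresponding values were -1.12 ± 0.05 for Yap1 and -0.80 ± 0.04 for Wwtr1. Of 14 neural crest markers, 9 averaged over 1 CPM, among them Twist1, Sox9 and Tfap2a, while Sox10, Pax7 and Foxd3 were at 0 counts in all 18 libraries. Of 8 osteoblast markers, 7 averaged over 1 CPM. The summed markers of endothelial, blood, epithelial and skeletal muscle cells did not exceed 6.04 CPM in any library. In bulk RNA, fewer cells of a type and less RNA per cell cannot be told apart, and all levels are relative to the other RNA of the library.

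With FGF2 at d2.5, the whole list rose. All 50 genes were called higher in Ctrl+FGF2 than in Ctrl+vehicle cells (edgeR quasi-likelihood test, Benjamini-Hochberg adjusted p under 0.05), whereas 33.5% of all 13677 genes tested were called higher. The median log2 fold change was 0.79, with a range from 0.22 to 1.29, beside a median of 0.00 over all genes tested. The rise was at least 1.5-fold for 38 genes and at least 2-fold for 12. For all 50, each Ctrl+FGF2 library was above each Ctrl+vehicle library, which was so for 34.9% of all genes tested. The summed level of the 50 genes was 5282, 5632 and 5464 CPM in the Ctrl+vehicle libraries and 9539.9, 9812 and 9689 CPM in the Ctrl+FGF2 libraries. Ncl and Npm1 alone made up much of these sums, and without them the ranges were 2774 to 3011 CPM and 5063 to 5163 CPM. Marker genes moved in the same comparison. The summed osteoblast markers were at 18470.0 to 18732 CPM in Ctrl+vehicle and 10227 to 10499 CPM in Ctrl+FGF2 libraries, and the summed neural crest markers at 489 to 532 CPM and 314 to 323 CPM. The osteoblast marker Col1a1 alone fell by more than the osteoblast sum did, so the other osteoblast markers together were higher with FGF2. The osteoblast markers did not fall together, as 5 of 7 tested were called lower and 2 higher, with log2 fold changes from -9.61 to 5.25. Among those lower, Alpl, an early osteoblast enzyme, was at 110.0, 137 and 124 CPM and 0.150, 0.155 and 0.142 CPM. The part of these shifts in the rise of the list was not tested.

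**Figure D1:**
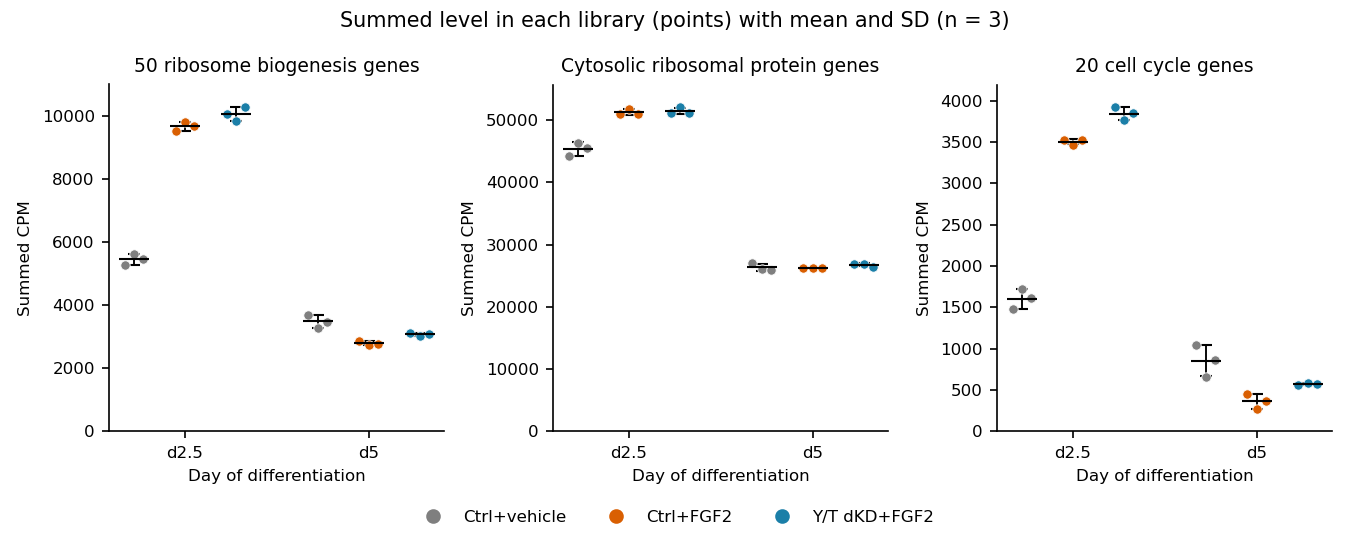
Summed CPM (vertical axes, starting at 0) of the 50 ribosome biogenesis genes, of the genes for cytosolic ribosomal proteins and of 20 cell cycle genes, for the 3 groups at d2.5 and d5. Points are libraries, horizontal lines are means and bars are SD over 3 libraries, and scaling factors were set within each day. The 50 genes sit between 5282 and 5632 CPM without FGF2 at d2.5 and between 9539.9 and 9812 CPM with it, while at d5 the FGF2 libraries, at 2737 to 2859 CPM, lie below the vehicle libraries.

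The 2 largest rises were those of snoRNP proteins. Dkc1 (ENSMUSG00000031403.14, chrX:75095854-75109777 in GRCm38), the pseudouridine synthase of box H/ACA snoRNPs, was at 60.6, 74.0 and 67.8 CPM in Ctrl+vehicle and 165, 167 and 165 CPM in Ctrl+FGF2 libraries (log2 fold change 1.29 ± 0.05, adjusted p = 5.9e-21). Nop56 (ENSMUSG00000027405.16, chr2:130274430-130279313), a scaffold of box C/D snoRNPs, which carry out ribose methylation, was at 95.1, 104 and 98.6 CPM without and 227, 243 and 244 CPM with FGF2 (log2 fold change 1.26 ± 0.04, adjusted p = 1.7e-22). In both genes every library with FGF2 was more than 2-fold above every library without it. Nop58, the partner of Nop56, went from 132, 142 and 138 CPM to 293, 313 and 306 CPM (log2 fold change 1.14 ± 0.04, adjusted p = 2.5e-22). Nhp2, an RNA-binding subunit of box H/ACA snoRNPs, went from 37.4, 38.7 and 35.3 CPM to 63.3, 65.0 and 66.3 CPM (log2 fold change 0.80 ± 0.05, adjusted p = 1.7e-14). The median over the 3 box C/D proteins was 1.14 and that over the 5 box H/ACA genes 0.92, with the smallest rise, 0.41, for Nop10.

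Genes of RNA polymerase I transcription had the lowest median of the 7 roles, a log2 fold change of 0.45 over 6 genes. Ubtf, which opens ribosomal DNA for transcription, was at 170.0, 183 and 172 CPM and, with FGF2, at 225, 218 and 221 CPM (log2 fold change 0.34 ± 0.04, adjusted p = 1.9e-09). Ddx21, a nucleolar helicase that binds ribosomal DNA and snoRNAs, was at 173, 190.4 and 186 CPM and 376, 389 and 383 CPM (log2 fold change 1.06 ± 0.04, adjusted p = 6.7e-22). Groups did not overlap for either gene, and the levels of Ddx21 rose at least 2-fold on average while those of Ubtf rose by less than 1.5-fold. The smallest value of the list, 0.22 ± 0.04 (adjusted p = 3.5e-05), belonged to Rrn3, the factor that makes the polymerase competent to start. The polymerase subunits Polr1a, Polr1b and Polr1c stood at 0.34 ± 0.04, 1.04 ± 0.06 and 0.55 ± 0.05.

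Among the abundant nucleolar proteins, Npm1, a histone and ribosomal protein chaperone, was at 1371, 1400.2 and 1383 CPM and 2169, 2256 and 2212 CPM (log2 fold change 0.68 ± 0.03, adjusted p = 4.1e-19), and nucleolin, Ncl, rose by 0.99 ± 0.03. The 12 small subunit processome genes had a median of 0.79. Wdr43, a subunit that joins the precursor early, was at 101, 102 and 103 CPM without and 231, 249.7 and 248 CPM with FGF2 (log2 fold change 1.25 ± 0.04, adjusted p = 5.4e-23). Nop14, which the small subunit needs for processing of its RNA, was at 71.2, 82.1 and 75.7 CPM and 139, 146 and 139 CPM (log2 fold change 0.88 ± 0.04, adjusted p = 1.8e-17). The Ctrl+FGF2 libraries of these genes were tightly grouped and all lay above Ctrl+vehicle.

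The 7 late small subunit genes had a lower median, 0.62. Pno1, which holds the precursor of the small subunit before its last cleavage, was at 50.01, 54.8 and 57.7 CPM and 84.6, 87.6 and 93.8 CPM (log2 fold change 0.71 ± 0.05, adjusted p = 1.2e-13). Nob1, the nuclease of that last cleavage, rose by only 0.25 ± 0.05 (adjusted p = 5.4e-05). The 15 large subunit genes had a median of 0.83. Gnl3, or nucleostemin, a GTPase of large subunit assembly, went from 77.9, 83.9 and 83.2 CPM to 163, 171 and 166 CPM (log2 fold change 1.03 ± 0.04, adjusted p = 5.0e-20). Mrto4, which holds the place of the stalk on the pre-large subunit, went from 26.6, 32.9 and 34.3 CPM to 61.4, 65.3 and 63.1 CPM (log2 fold change 1.02 ± 0.06, adjusted p = 5.1e-15). Every role therefore moved in the same direction at d2.5, with medians from 0.45 for RNA polymerase I to 1.14 for box C/D snoRNPs.

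**Figure D2:**
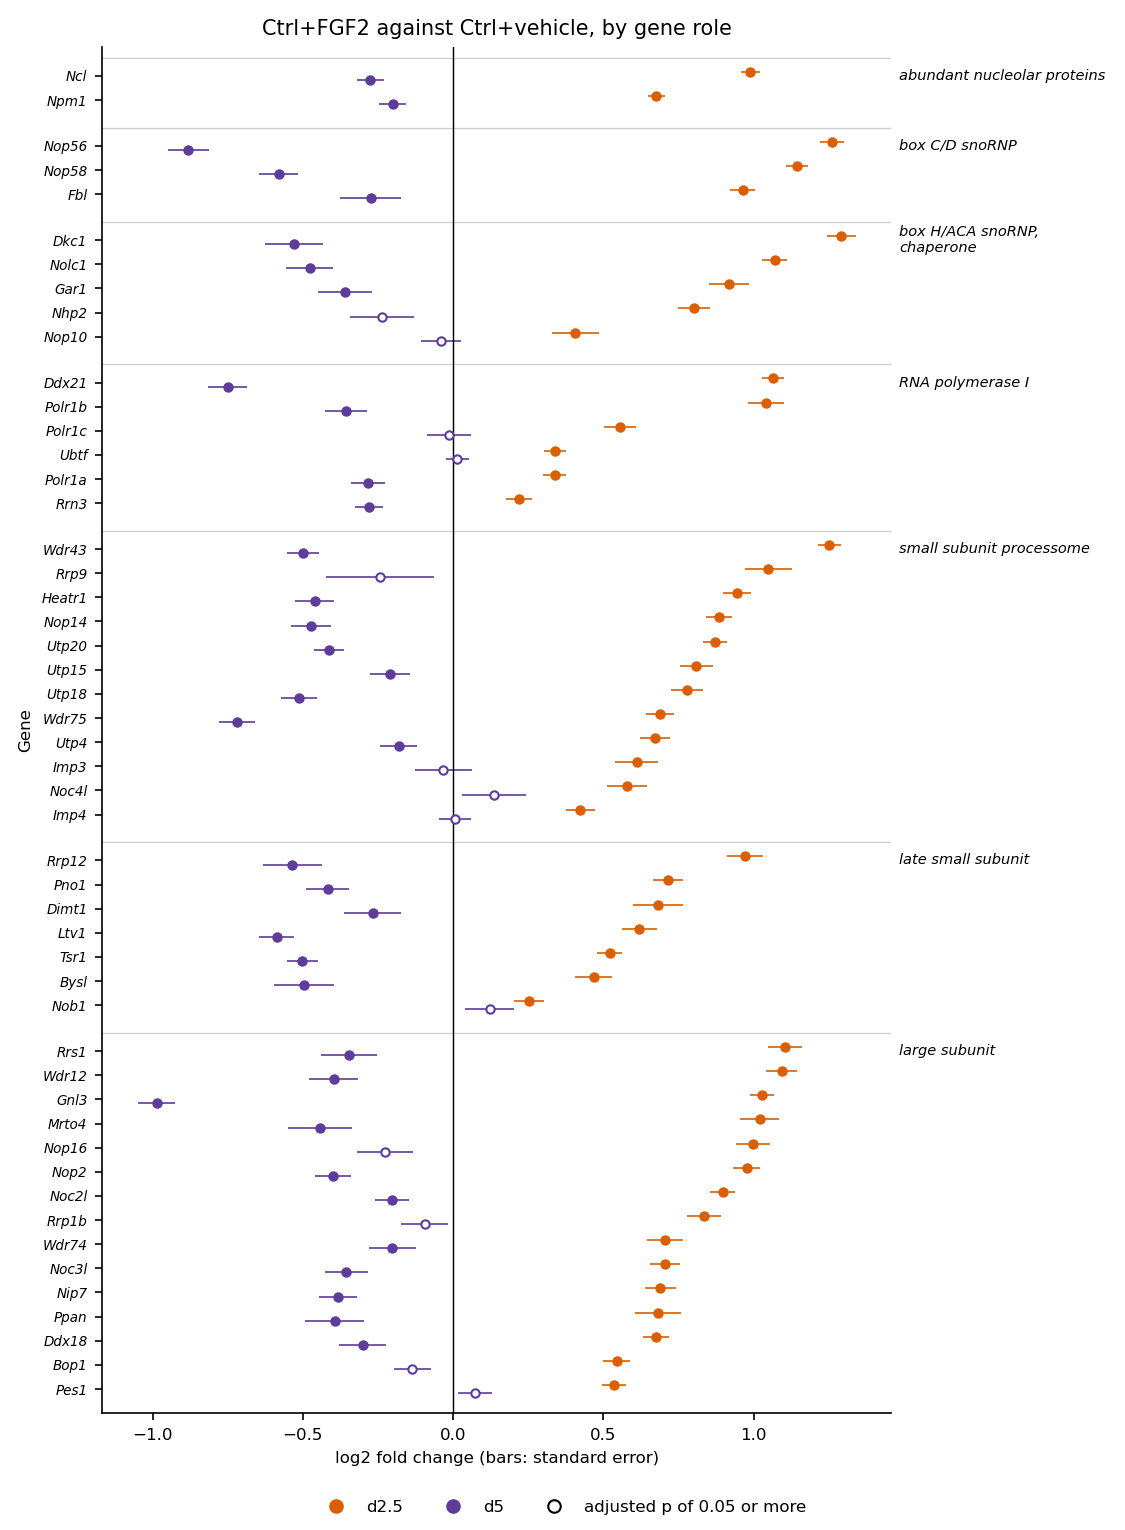
The log2 fold change of Ctrl+FGF2 against Ctrl+vehicle (horizontal axis) for each of the 50 genes (vertical axis, by role) at d2.5 and d5, with bars of 1 standard error from the fit and open points where the adjusted p was 0.05 or more. All d2.5 points lie to the right of 0, between 0.22 and 1.29, and 45 of the 50 d5 points lie to the left of it.

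The promoters of the list were read for the E-box CACGTG, the letters bound by Myc and other factors, and for GGAATG, the letters of the Tead motif through which Yap and Taz act, each on either strand. RefSeq windows from 250 bases before to 50 after the start (GRCm38.p6) were matched for 45 of the 50 genes. The E-box was present for 11 of the 45 (24.4%), for 11.8% of 9451 tested genes and for 8.09% of all 27025 genes with a window. GGAATG was present for 3 of the 45 (6.67%), for 14.2% of tested genes and for 16.6% of all genes. Of 78 other ribosome biogenesis genes with a window, 16.7% held the E-box and 7.69% GGAATG. Among tested genes called higher with FGF2 at d2.5, the shares were 12.2% and 12.7%. In 10 of the 11 members with an E-box it began within 60 bases of the start, as in 48.8% of the 1116 tested genes with one. The 4 members with the largest d2.5 rise whose E-box lay between 60 bases before and 30 after the start are printed below with the E-box in capitals, together with Dkc1 and Nop56, the largest rises, which held none.
Wdr43: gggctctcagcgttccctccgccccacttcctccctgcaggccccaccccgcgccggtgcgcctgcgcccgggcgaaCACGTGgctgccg
Nop2: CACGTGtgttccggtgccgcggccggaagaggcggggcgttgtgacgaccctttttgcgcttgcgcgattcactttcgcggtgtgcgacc
Utp18: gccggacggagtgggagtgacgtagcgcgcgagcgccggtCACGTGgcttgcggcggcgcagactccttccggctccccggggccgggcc
Utp4: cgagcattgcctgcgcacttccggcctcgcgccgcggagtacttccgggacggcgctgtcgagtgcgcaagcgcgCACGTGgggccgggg
Dkc1: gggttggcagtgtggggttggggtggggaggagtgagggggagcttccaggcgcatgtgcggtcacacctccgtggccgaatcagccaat
Nop56: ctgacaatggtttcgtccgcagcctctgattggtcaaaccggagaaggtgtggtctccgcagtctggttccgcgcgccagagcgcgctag
These stretches lie at chr17:71616155-71616244, plus strand (Wdr43), chr6:125131823-125131912, plus strand (Nop2), chr11:93885737-93885826, minus strand (Utp18), chr8:106893580-106893669, plus strand (Utp4), chrX:75095794-75095883, plus strand (Dkc1) and chr2:130274352-130274441, plus strand (Nop56), and each reads towards the gene. Counted from the start base as 1, the E-box began at base 18 in Wdr43, -60 in Nop2, -20 in Utp18 and 16 in Utp4. No test was made of members with and without an E-box. The median log2 fold change with FGF2 at d2.5 was 0.67 for the 11 with it and 0.82 for the 34 without it, and at d5 it was -0.41 and -0.33. A match of letters is a description and does not show that a factor was bound.

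The knockdown left the list near its FGF2 level at d2.5. Between Ctrl+FGF2 and the knockdown cells, 6 genes were called higher and 5 lower in the latter, beside 10.8% and 13.6% of all genes tested, so both counts were close to the background. The median log2 fold change was -0.01 and the range ran from -0.29 to 0.17. Against Ctrl+vehicle, all 50 genes were still called higher in the Y/T dKD+FGF2 cells (34.1% of all genes), with a median of 0.80 and a range from 0.17 to 1.43. The summed level was 10062, 9835 and 10286 CPM, above each of the Ctrl+FGF2 libraries, but without Ncl and Npm1 the groups overlapped, at 5145 to 5229.9 CPM with the knockdown and 5063 to 5163 CPM in Ctrl+FGF2.

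The largest falls with the knockdown at d2.5 were small. Wdr74, a large subunit factor, was at 44.6, 44.8 and 46.2 CPM in Ctrl+FGF2 and 37.8, 36.6 and 36.6 CPM in Y/T dKD+FGF2 libraries (log2 fold change -0.29 ± 0.06, adjusted p = 3.4e-04), with no overlap and with every knockdown library still above the 26.8, 29.4 and 26.8 CPM of Ctrl+vehicle. Imp3, which anchors the U3 snoRNA on the precursor, was at 31.2, 36.3 and 33.5 CPM and 28.7, 29.3 and 27.9 CPM (log2 fold change -0.23 ± 0.07, adjusted p = 0.0134). Bysl, a late small subunit factor, was at 38.8, 40.2 and 37.0 CPM and 32.5, 35.3 and 33.5 CPM (log2 fold change -0.19 ± 0.06, adjusted p = 0.0219). The other 2 genes called lower were Bop1 (-0.13 ± 0.04) and Noc2l (-0.14 ± 0.04), which serve the large subunit.

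Among the 6 called higher, Pno1 was at 84.6, 87.6 and 93.8 CPM in Ctrl+FGF2 and 102, 99.02 and 97.9 CPM in Y/T dKD+FGF2 libraries (log2 fold change 0.17 ± 0.05, adjusted p = 0.01). Dkc1 was at 165, 167 and 165 CPM and 183, 179 and 184 CPM (log2 fold change 0.14 ± 0.04, adjusted p = 0.0173). Utp20, a very long small subunit processome protein, was at 226, 223 and 223 CPM and 233, 250.1 and 249 CPM, where the lowest knockdown library was only a few CPM above the highest control (log2 fold change 0.12 ± 0.04, adjusted p = 0.0186). Ddx21, Ncl and Npm1 followed with 0.10 ± 0.03, 0.09 ± 0.03 and 0.09 ± 0.03. These counts moved with single libraries. Leaving out each library of d2.5 in turn gave 1 to 10 genes called higher and 1 to 9 lower, with 1 and 1 when Y/T dKD+FGF2 replicate 3 was left out and 10 and 9 when Ctrl+vehicle replicate 1 was left out. Of the 6 genes given per library for this comparison, only Wdr74 kept its call whichever library was left out.

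At d5 the FGF2 effect had the opposite sign. In Ctrl+FGF2 against Ctrl+vehicle cells, 37 of the 50 genes were called lower (edgeR quasi-likelihood test, adjusted), beside 23.7% of 13304 genes tested, and none was called higher by edgeR or by DESeq2, nor at an unadjusted p under 0.05 by either (0 genes). The median log2 fold change was -0.35, from -0.99 to 0.14, beside 0.02 over all genes tested. Values were below 0 for 45 genes, and for 36 each Ctrl+FGF2 library lay below each Ctrl+vehicle library (26.5% of all genes tested). The fall reached 1.5-fold in 5 genes. The summed level was 3706, 3288 and 3459 CPM in Ctrl+vehicle and 2859, 2737 and 2779 CPM in Ctrl+FGF2 libraries. The summed osteoblast markers were lower as well, at 30116 to 32444 CPM in Ctrl+vehicle and 16798 to 18129 CPM in Ctrl+FGF2 libraries. Of the 8 markers, 4 were called lower and 4 higher, with log2 fold changes from -2.78 to 1.86. The part of this shift was not tested.

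Gnl3 (ENSMUSG00000042354.7, chr14:31012433-31019152) fell most, from 108, 93.6 and 104 CPM to 47.3, 55.5 and 51.1 CPM (log2 fold change -0.99 ± 0.06, adjusted p = 9.4e-10). Nop56 went from 85.4, 69.2 and 72.5 CPM to 40.0, 40.3 and 42.6 CPM (log2 fold change -0.88 ± 0.07, adjusted p = 1.4e-08), and Ddx21 from 144, 119 and 132 CPM to 85.4, 71.7 and 77.3 CPM (log2 fold change -0.75 ± 0.07, adjusted p = 5.3e-08). These 3 genes had been among those that rose at least 2-fold at d2.5. Wdr75, a small subunit processome protein needed for ribosomal DNA transcription, went from 68.4, 62.3 and 64.7 CPM to 41.6, 38.3 and 38.8 CPM (log2 fold change -0.72 ± 0.06, adjusted p = 3.0e-08), and Ltv1, a late small subunit export factor, changed by -0.59 ± 0.06. None of these 5 overlapped between the groups.

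Smaller falls were seen across the roles. Nop58 went from 113, 92.4 and 102 CPM to 71.8, 65.9 and 67.4 CPM (log2 fold change -0.58 ± 0.06, adjusted p = 1.0e-06), and Dkc1 from 40.9, 33.1 and 36.5 CPM to 28.6, 20.9 and 27.2 CPM (log2 fold change -0.53 ± 0.10, adjusted p = 2.0e-04). Wdr43 was at 92.4, 85.6 and 90.7 CPM and 68.8, 61.4 and 59.9 CPM (log2 fold change -0.50 ± 0.05, adjusted p = 8.5e-07). Npm1, at 719, 612 and 651 CPM and 579, 567 and 577 CPM, was also lower (log2 fold change -0.20 ± 0.05, adjusted p = 0.00137). Bysl, Nop14, Mrto4, Pno1, Utp20 and Gar1 were also called lower, with log2 fold changes of -0.50 ± 0.10, -0.47 ± 0.07, -0.44 ± 0.11, -0.42 ± 0.07, -0.41 ± 0.05 and -0.36 ± 0.09. The role medians ran from -0.24 for the abundant nucleolar proteins to -0.58 for box C/D snoRNPs, with -0.50 for late small subunit genes.

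The 13 genes not called at d5 came from several roles. Ubtf was at 145, 146 and 149 CPM in Ctrl+vehicle and 154, 146 and 144 CPM in Ctrl+FGF2 libraries, fully overlapping (log2 fold change 0.01 ± 0.04, adjusted p = 0.804). Nhp2, at 25.1, 18.6 and 23.0 CPM and 20.9, 18.7 and 16.6 CPM, overlapped between the groups (log2 fold change -0.24 ± 0.11, adjusted p = 0.0738). Imp3 (-0.03 ± 0.10), Nop10 (-0.04 ± 0.07), Polr1c (-0.01 ± 0.07) and Imp4 (0.01 ± 0.05) were near 0, and Noc4l (0.14 ± 0.11), Nob1 (0.12 ± 0.08) and Pes1 (0.07 ± 0.06) were above it. Scaling bears on these values. With library totals alone the median of all genes moved to 0.12, 29 of the 50 genes were called lower and 3 higher (Nob1, Pes1 and Ubtf), and the median of the list was -0.25.

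**Figure D3:**
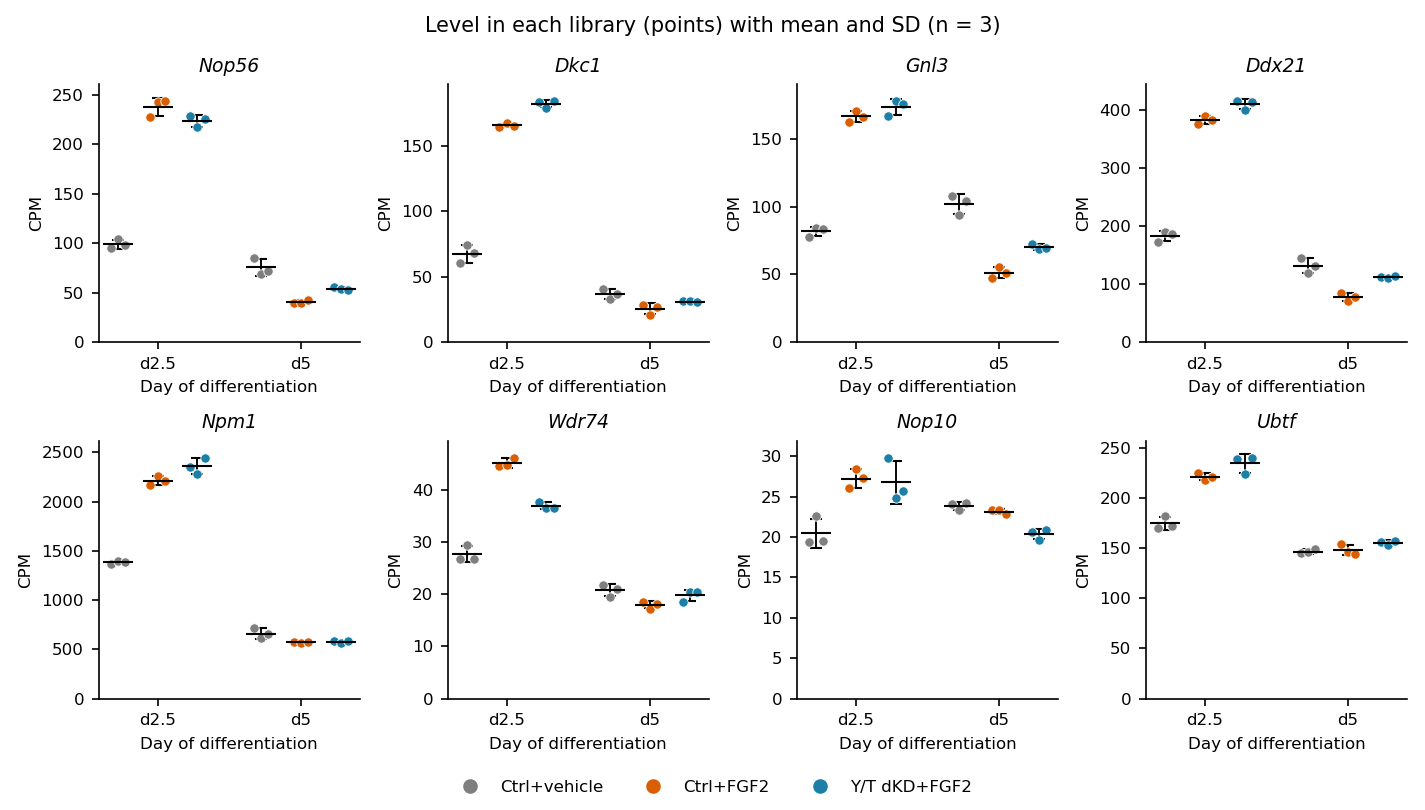
CPM (vertical axes, starting at 0) of 8 genes in every library of the 3 groups at d2.5 and d5, with mean and SD over 3 libraries. Nop56, Dkc1, Gnl3 and Ddx21 are raised at least 2-fold on average by FGF2 at d2.5 and lowered by it at d5, Ubtf at d5 overlaps between vehicle and FGF2, and Wdr74 and Nop10 are the largest falls with the knockdown at d2.5 and d5.

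With the knockdown at d5, much of the list was higher. Relative to Ctrl+FGF2, 27 genes were called higher in the knockdown cells (15.6% of all genes tested) and 1 lower (16.1%). The median log2 fold change was 0.22, from -0.19 to 0.53, beside 0.00 over all genes tested, and no gene reached 1.5-fold. Values were above 0 for 48 genes, and for 32 each knockdown library lay above each Ctrl+FGF2 library (22.5% of all genes tested). DESeq2 called 19 higher. The summed osteoblast markers were also higher, at 23156 to 24530.0 CPM, and the part of this shift was not tested. This comparison and that of FGF2 at d5 share the Ctrl+FGF2 libraries, so their opposite signs are not independent of each other, and the values are given side by side.

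Ddx21, at 85.4, 71.7 and 77.3 CPM in Ctrl+FGF2, was at 113, 111 and 114 CPM in Y/T dKD+FGF2 libraries (log2 fold change 0.53 ± 0.07, adjusted p = 7.0e-06), between the FGF2 and the vehicle levels. Wdr75 was at 57.2, 51.8 and 58.3 CPM after the knockdown (log2 fold change 0.50 ± 0.06, adjusted p = 5.7e-06), also between them. Gar1, the small H/ACA subunit, was at 14.1, 13.8 and 14.6 CPM in Ctrl+vehicle, 11.1, 11.1 and 10.9 CPM in Ctrl+FGF2 and 15.6, 16.0 and 14.8 CPM in Y/T dKD+FGF2 libraries (log2 fold change 0.49 ± 0.09, adjusted p = 3.4e-04), where the knockdown libraries were the highest of the day. Gnl3 was at 72.7, 68.4 and 69.2 CPM (log2 fold change 0.45 ± 0.06, adjusted p = 3.4e-05) and Nop56 at 55.9, 53.5 and 52.5 CPM (log2 fold change 0.40 ± 0.07, adjusted p = 3.0e-04), each above all Ctrl+FGF2 and below all Ctrl+vehicle libraries. All 3 box C/D proteins rose, Fbl, the methyltransferase, by 0.46 ± 0.10.

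The H/ACA subunit Nop10 was the only gene called lower, from 23.3, 23.4 and 22.8 CPM to 20.6, 19.7 and 20.8 CPM (log2 fold change -0.19 ± 0.07, adjusted p = 0.0435). The 2 groups did not overlap, but the call was lost with DESeq2 (adjusted p = 0.229) and when any Ctrl+FGF2 or Y/T dKD+FGF2 library, or Ctrl+vehicle replicate 3, was left out (7 of 9 libraries). Npm1, at 583, 568 and 586 CPM, and Ncl were not called (0.01 ± 0.05 and -0.01 ± 0.05). By role, 8 of 12 small subunit processome genes, 5 of 7 late small subunit genes, 5 of 15 large subunit genes and 2 of 6 RNA polymerase I genes were called higher. Ubtf, at 156, 153 and 157 CPM, was not among them (log2 fold change 0.07 ± 0.04, adjusted p = 0.171).

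Against Ctrl+vehicle at d5, the Y/T dKD+FGF2 cells had 21 genes called lower (21.1% of all genes tested) and 2 higher (20.7%), with a median of -0.17. This comparison is the sum of the other 2 of the day, so its median adds no independent value. The 2 genes called higher were Noc4l (log2 fold change 0.41 ± 0.10, adjusted p = 0.00368) and Nob1 (log2 fold change 0.24 ± 0.08, adjusted p = 0.0217). The order of the group means at d5 was Ctrl+FGF2 below Y/T dKD+FGF2 below Ctrl+vehicle for 33 genes and Ctrl+FGF2 below Ctrl+vehicle below Y/T dKD+FGF2 for 10. The share of all genes with each order was not computed, so these counts are only a description. Without the composition factors, 11 genes were called lower and 8 higher in this comparison.

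**Figure D4:**
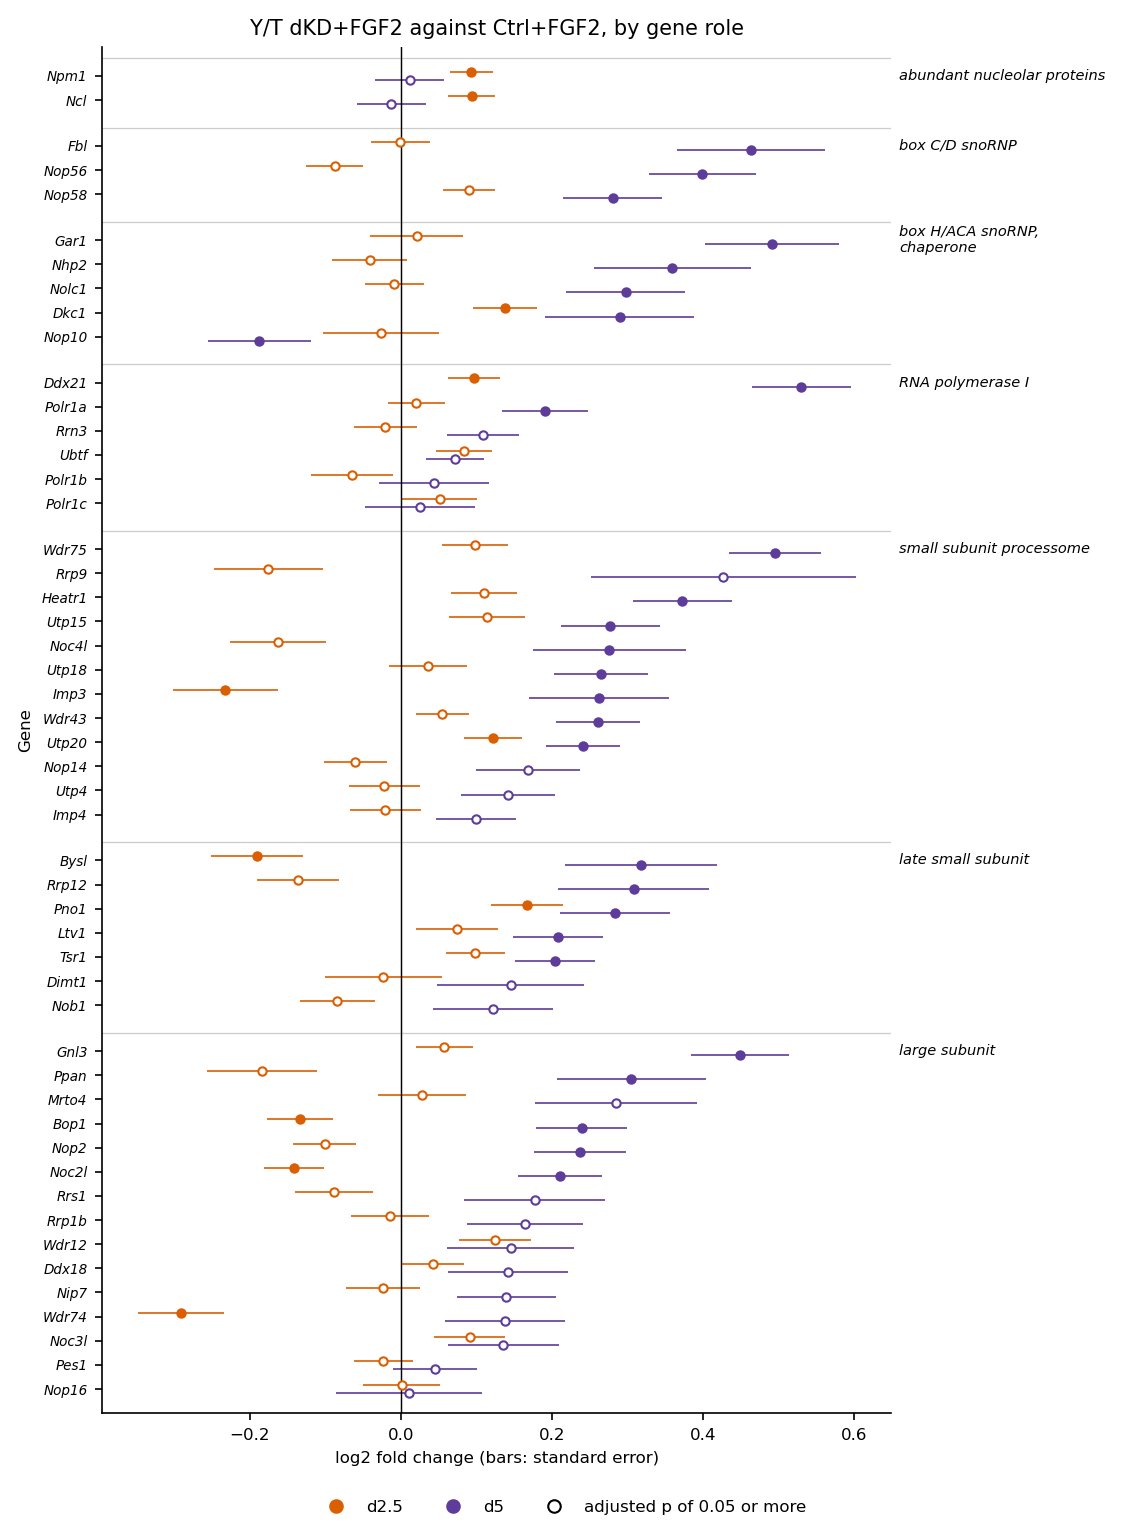
The log2 fold change of Y/T dKD+FGF2 against Ctrl+FGF2 (horizontal axis) for each of the 50 genes (vertical axis, by role) at d2.5 and d5, with bars of 1 standard error from the fit and open points where the adjusted p was 0.05 or more. The d2.5 points scatter about 0, from -0.29 to 0.17, and 48 of the 50 d5 points lie to the right of 0.

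The difference between days was tested over all 18 libraries, as the effect at d5 minus that at d2.5. The FGF2 effect was lower at d5 for 49 of the 50 genes (29.1% of 14198 genes tested), with a median difference of -1.14 on the log2 scale. The largest differences were those of Nop56 (-2.17 ± 0.08), Gnl3 (-2.04 ± 0.07) and Dkc1 (-1.84 ± 0.11), and the 1 gene not called was Nob1 (-0.15 ± 0.09, adjusted p = 0.157). The knockdown effect was higher at d5 for 21 genes (11.6% of all genes tested), with a median difference of 0.20, and lower for none (0 at an unadjusted p under 0.05, in edgeR and in DESeq2). Its largest differences were those of Rrp9, a U3 snoRNP protein (0.60 ± 0.18), Bysl (0.51 ± 0.11) and Imp3 (0.49 ± 0.12). Bysl and Imp3 were called lower with the knockdown at d2.5 by edgeR but not by DESeq2. Their mean levels were higher with it at d5. There Imp3 overlapped, at 19.0, 17.1 and 22.2 CPM in Ctrl+FGF2 and 23.5, 24.3 and 21.6 CPM in Y/T dKD+FGF2 libraries, and Bysl did not.

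Across the 50 genes, those that rose more with FGF2 at d2.5 fell more at d5. Pearson's r was -0.57 and Spearman's rho -0.55, as a description over genes, which are not independent replicates. The 2 comparisons share no library. The same correlation over all genes tested was not computed, so the relation cannot be called particular to the list. In levels set on factors common to all 18 libraries, the median difference of d5 from d2.5 was -0.32 in Ctrl+vehicle cells, with 37 genes lower and 13 higher, -1.53 in Ctrl+FGF2 cells and -1.25 in Y/T dKD+FGF2 cells, with all 50 lower in both. These differences hold the batch as well as the day.

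Some of these genes host snoRNAs, the guide RNAs of snoRNPs, in their introns. Of the 50 genes, 8 (16.0%) had a snoRNA annotated within them in GENCODE M21, against 1.84% of 11578 tested protein-coding genes. They were Ncl, Nop56, Nop58, Dkc1, Wdr43, Gnl3, Ppan and Tsr1. With FGF2 at d2.5 their median log2 fold change was 1.09 and that of the other 42 genes 0.71, and at d5 the medians were -0.51 and -0.28. With the knockdown at d5 they were 0.28 and 0.20. The counts are of the host transcripts, and the snoRNAs themselves were not measured.

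The wider pathway was read from a second list. Of 99 other ribosome biogenesis genes, 84 were called higher and 3 lower with FGF2 at d2.5 (median log2 fold change 0.47). Of all genes tested, 33.5% were called higher and 34.1% lower. At d5, 35 of the 99 were called lower and 9 higher with FGF2 (median -0.11), beside 23.7% and 23.5% of all genes. The knockdown gave 6 higher and 14 lower at d2.5, and 20 higher and 1 lower at d5 (median 0.09). The 14.1% called lower at d2.5 was close to the 13.6% of all genes, and the 20.2% called higher at d5 stood beside 15.6% of all genes. Among the 99, the 11 other snoRNP genes were all called higher with FGF2 at d2.5 (median 0.67). So were 33 of 36 small subunit genes, 33 of 41 large subunit genes and 7 of 11 RNA polymerase I genes, beside 33.5% of all genes. Of 75 tested genes for cytosolic ribosomal proteins, the structural parts of the particle, 66 were called higher with FGF2 at d2.5 (33.5% of all genes). Their median was only 0.20, and at d5 19 were higher and 14 lower (median -0.02). These d5 counts, 25.3% and 18.7% of the 75, were near the 23.5% and 23.7% of all genes called higher and lower.

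Cell cycle genes are given beside these results. All 20 genes of a cell cycle list, the proliferation marker Mki67 among them, were called higher with FGF2 at d2.5 (median 1.09) and all 20 lower at d5 (median -1.29). Of all genes tested, 33.5% were called higher with FGF2 at d2.5 and 23.7% lower at d5. With the knockdown, 9 cell cycle genes were called higher at d2.5 (median 0.13) and 16 at d5 (median 0.68), beside 10.8% and 15.6% of all genes. Their summed level at d5 was 1044, 662 and 857 CPM in Ctrl+vehicle, 451, 269.7 and 364 CPM in Ctrl+FGF2 and 556, 583 and 576 CPM in Y/T dKD+FGF2 libraries. In Ctrl+vehicle and Ctrl+FGF2 at d5, replicate 1 was highest and replicate 2 lowest for the cell cycle sum. The sum of the 50 ribosome biogenesis genes had the same order of replicates there. In Y/T dKD+FGF2 at d5 the orders were opposite, with 3109, 3024 and 3091 CPM for the 50 genes. At d2.5 the orders matched in Ctrl+vehicle and were opposite in Ctrl+FGF2. In Y/T dKD+FGF2 at d2.5 only the lowest library, replicate 2, was the same. The part of dividing cells in the changes of the list was not tested.

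The cell type markers did not all move one way. Of 7 tested osteoblast markers, 5 were called lower and 2 higher with FGF2 at d2.5, and of 8 at d5, 4 were lower and 4 higher. With the knockdown, 4 osteoblast markers were called higher and 1 lower at d2.5 (10.8% and 13.6% of all genes), and all 8 higher at d5 (15.6%). Col1a1, the main bone collagen chain, took up much of the osteoblast sum in Ctrl+vehicle libraries at d2.5, at 13684, 13484 and 13493 CPM. In Ctrl+FGF2 libraries at d2.5 it was at 2410.5, 2284 and 2338 CPM, a smaller part of the sum. Of 9 tested neural crest markers, 5 were called lower with FGF2 at d2.5, and 4 higher and 4 lower at d5. With FGF2, 33.5% of all genes were called higher and 34.1% lower at d2.5, and 23.5% and 23.7% at d5.

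Myc, the best known activator of these genes, was at 64.4, 64.2 and 59.6 CPM in Ctrl+vehicle, 156, 165 and 159 CPM in Ctrl+FGF2 and 130.3, 136 and 129 CPM in Y/T dKD+FGF2 libraries at d2.5. It rose with FGF2 (log2 fold change 1.35 ± 0.04, adjusted p = 1.1e-22) and fell with the knockdown (log2 fold change -0.28 ± 0.04, adjusted p = 3.1e-06), where the median of the 50 genes was near 0. At d5 its levels were 39.4, 32.3 and 29.5 CPM, 21.6, 15.9 and 20.4 CPM and 29.5, 27.8 and 28.7 CPM in the same order of groups, a fall with FGF2 (log2 fold change -0.81 ± 0.11, adjusted p = 7.6e-06) and a rise with the knockdown (log2 fold change 0.58 ± 0.11, adjusted p = 5.3e-04). The 9 genes of its network moved both ways, as 1 was called higher (Myc) and 4 lower with FGF2 at d2.5 (median -0.16). Of 8 tested at d5, 4 were higher and 2 lower (median 0.09). Those called lower were 44.4% at d2.5 and 25% at d5, beside 34.1% and 23.7% of all genes. Those called higher were 11.1% and 50%, beside 33.5% and 23.5%. The network ranged from -1.64 to 1.35 with FGF2 at d2.5. Its lowest value was that of Mxd4, an antagonist of Myc. Mxd4 was at 145, 147 and 142 CPM and 47.3, 45.8 and 46.5 CPM at d2.5 (log2 fold change -1.64 ± 0.04, adjusted p = 3.0e-24). The part of Myc and its network in the changes of the list was not tested.

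**Figure D5:**
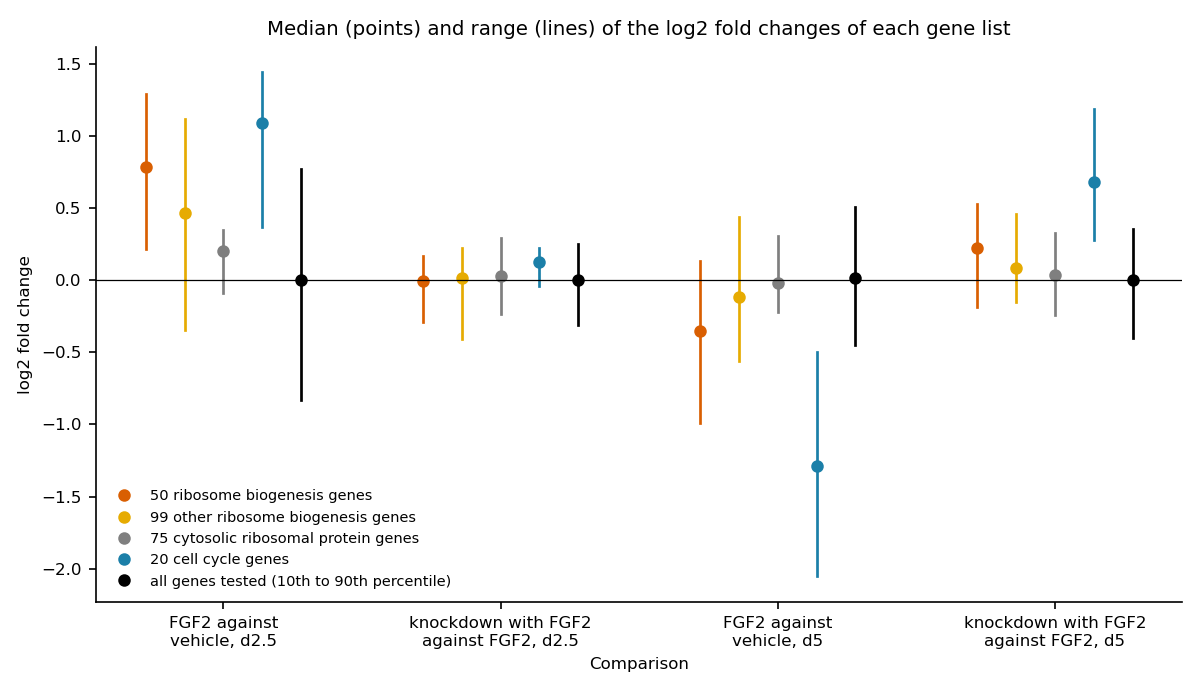
Median (points) and range (lines) of the log2 fold changes (vertical axis) of the 50 genes, of the 99 other ribosome biogenesis genes, of the genes for cytosolic ribosomal proteins and of 20 cell cycle genes in 4 comparisons (horizontal axis), with the 10th to 90th percentile of all genes tested in black. With FGF2 the medians of the 50 genes were 0.79 at d2.5 and -0.35 at d5, between those of the cell cycle genes (1.09 and -1.29) and of the ribosomal protein genes (0.20 and -0.02).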

How the data were processed

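Bulk RNA-seq of 18 O9-1 libraries was used, 3 for each of 3 groups at d2.5 and d5. The deposited files hold raw counts of reads per gene ID, unstranded and for each strand, made by the authors. The submitters' processing notes name FastQC, STAR, Picard, featureCounts and mm10, without versions. The column for the reverse strand, which held 96.0 to 96.6% of stranded counts, was used, and rows that name no gene (27.0 to 34.4% of the total) were left out. Of 55335 gene IDs, 55154 were named with GENCODE M21, by stable ID. These counts entered the quasi-likelihood test of edgeR 4.0.16 under R 4.3.3 (TMM factors, filterByExpr), over all genes tested, with Benjamini-Hochberg adjustment, in 1 fit per day with its 3 groups, or over 18 libraries for differences between days. A call is an adjusted p under 0.05. CPM values use the TMM factors of each day. Alternatives were DESeq2 1.42.0, other scaling, filters, strand, libraries in the fit, a 1.5-fold minimum, a replicate block and leaving out each library.

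The list and the other gene lists were chosen with earlier results of these data known. Values per library are given for the member with the highest level per length in each role (2 in roles of over 10), and for the 3 largest rises and falls among called members for FGF2 and the knockdown at each day and for the difference of the FGF2 effect. Other members named, such as Rrn3, Nob1, Ltv1 and Fbl, and Alpl, Col1a1 and Mxd4 were chosen after their values were seen. Promoters are from RefSeq (GRCm38.p6). Every member had at least 64 counts in every library, and no 2 libraries were identical.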

Additional observations from a re-analysis of the deposited data

Results flagged for a closer look

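The effects at d2.5 and d5 differed by the test of the difference between days (edgeR, 18 libraries). For FGF2 the difference was called for 49 of the 50 genes, all lower at d5. Nop56 (-2.17), Gnl3 (-2.04) and Dkc1 (-1.84) had the largest differences on the log2 scale, each with every library of FGF2 above vehicle at d2.5 and below it at d5. For the knockdown the difference was called for 21 genes, all higher at d5, with Rrp9 (0.60), Bysl (0.51) and Imp3 (0.49) at the top. Rrp9 itself was called in neither day's knockdown comparison. Each day is also a batch, and an effect of the batch on the response to FGF2 or to the siRNA cannot be told apart from that of the day.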

How the results depend on the processing

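Directions of the medians of the 50 genes were the same under every alternative run, except for the knockdown at d2.5, whose median ran from -0.012 to 0.0057. For FGF2 at d2.5 all 50 genes were called under each scaling, filter, strand, DESeq2 and every fit that left out 1 library, and 38 passed a 1.5-fold minimum. Its median was 0.75 with upper-quartile factors, 0.82 with library totals alone and 0.75 to 0.84 leaving out 1 library. For the knockdown cells relative to Ctrl+vehicle at d2.5 these medians were 0.78, 0.84 and 0.76 to 0.83, and for the difference of the FGF2 effect -1.05, -1.05 and -1.20 to -1.11.

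The knockdown counts at d2.5 were the least stable. DESeq2 called 2 lower. The count called higher was 10 with RLE factors, with upper-quartile factors, with at least 10 counts in every library and with only the 2 groups compared (10 lower there), and 2 with all 18 libraries in 1 fit. A 1.5-fold minimum left 0 higher and 0 lower. Leaving out 1 library gave 1 to 10 higher and 1 to 9 lower. Counts higher and lower were 10 and 9 without Ctrl+vehicle replicate 1, 9 and 8 without Ctrl+vehicle replicate 2 or Y/T dKD+FGF2 replicate 2, 1 and 4 without Ctrl+FGF2 replicate 1 or 3, 5 and 3 without Ctrl+FGF2 replicate 2, 2 and 4 without Y/T dKD+FGF2 replicate 1, and 1 and 1 without its replicate 3. DESeq2 kept only 2 of the 5 calls lower. Among the genes given per library for this comparison, Bysl was lost with DESeq2 (adjusted p = 0.0976), as was Imp3 (adjusted p = 0.0612).

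At d5, library totals alone gave 3 genes called higher and a median of -0.25 for FGF2, and a 1.5-fold minimum left 5 lower. For the knockdown, 0 were called lower with DESeq2, no filter, the replicate block, only the 2 groups compared, all 18 libraries or a 1.5-fold minimum (0 higher in the last), and 0 to 1 leaving out 1 library, with 20 to 30 higher. For the knockdown cells relative to Ctrl+vehicle the count higher was 1 with DESeq2, 4 with upper-quartile factors or only the 2 groups compared, 8 with library totals (11 lower, median -0.0904) and 0 with a 1.5-fold minimum (0 lower). Leaving out 1 library gave 1 to 3 higher and medians from -0.21 to -0.12, with 1 higher without Ctrl+vehicle replicate 2 or 3 or Y/T dKD+FGF2 replicate 1. A 1.5-fold minimum left 1 gene for the difference of the knockdown effect. The cause of these shifts was not tested.

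Replicate numbers did not pair the samples in all groups. Correlations of deviations between libraries of the same number ran from -0.161 to 0.072 at d2.5 and from -0.132 to 0.317 at d5. The highest were between Ctrl+vehicle and Ctrl+FGF2 at d5, at 0.28, 0.317 and 0.017 for replicates 1, 2 and 3. Crossing replicates 1 and 2 of these groups gave -0.277 and -0.312, so a pairing of these libraries is not excluded. With the replicate block, FGF2 gave 50 higher at d2.5 and 38 lower at d5, and the knockdown 6 higher and 5 lower at d2.5 and 28 higher and 0 lower at d5, where Nop10 had an adjusted p of 0.0551 in edgeR. The fewest counts of a member in a library were 64, for Rrp9, so its values carry the widest counting error of the list.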
